A study of Mus musculus with 24 samples.

Results

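The m6A profile of the mouse 8-cell embryo was set against those of the 5 other stages of oocyte and preimplantation development. N6-methyladenosine (m6A) is a methyl mark on adenosines of RNA, mapped here as peaks of antibody-bound over input RNA. Its members were chosen by presence alone. Of 9903 protein-coding genes with a peak in any of the 12 peak lists, 138 had one in both 8-cell lists and in none of the 10 others (the 8-cell-only genes), which is 1.39% of the genes. A further 381, or 3.85%, had a peak in neither 8-cell list and in 8 or more of the others (the absent genes). Peaks that overlapped between lists were joined into 31379 regions. Of these, 524 (1.67%) held peaks of both 8-cell lists and of no other, and 1198 (3.82%) held peaks of 8 or more other lists and of neither 8-cell list. These presence patterns define the members, so they are given as a description and were not tested.

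Each stage had 2 libraries, which the series calls biological replicates. All came from C57BL/6N mice 8 weeks old: GV (germinal vesicle) oocytes taken 48 h after PMSG, MII (metaphase II) oocytes at 14 h after hCG, zygotes at 27 to 28 h, 2-cell embryos at 39 to 43 h, 8-cell embryos at 68 to 70 h and blastocysts at 92 to 94 h. PMSG and hCG are the gonadotropins used to induce ovulation, and every group received PMSG. Each library was a pool, of 100 embryos in 8-cell replicate 1 and 51 in replicate 2, against 49 to 110 oocytes or embryos in the others. The 8-cell lists held 8803 and 9463 peaks, on 4624 and 4986 genes. The other lists held from 6914 to 11959 peaks, on 3025 to 5237 genes. Read depth is unknown and the inputs were not analysed here, so a missing mark and a low RNA level cannot be told apart. In pools of embryos, fewer cells of a type and less RNA per cell cannot be told apart either.

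m6A is placed by a methyltransferase complex built on METTL3 and METTL14, mostly near stop codons and in long exons. It is read by YTH-domain proteins, which can shorten the life of a transcript or alter its translation. The 8-cell stage lies after the embryo has cleared most RNA stored by the oocyte and switched on its own genome. Its cells next flatten against each other and gain an inside-outside polarity, before the trophectoderm and inner cell mass part in the blastocyst. The list of oocyte-specific genes fitted a stage after the zygote. Of its 26 members marked in any library, 8-cell replicate 1 marked 0 and replicate 2 marked 1. The 6 libraries of GV oocytes, MII oocytes and zygotes marked 19 to 22. The 2-cell lists marked 7 and 2 and the blastocyst lists 5 and 3, so a low count is not particular to the 8-cell stage. Of 8 cumulus and granulosa cell markers marked anywhere, each 8-cell list marked 1. Peaks show marked RNA and not expression, so these are checks on the mark.

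Start sites are shown first, since a peak over a start can hold m6Am, a related cap-side mark bound by the same antibodies, as well as m6A. Of the 524 8-cell-only regions, 6 (1.15%) overlay a RefSeq gene start in both replicates, against 59 of 5341 (1.1%) other regions found in both 8-cell lists. These shares were close, and most of the 8-cell-only regions thus lay away from gene starts. Printed below are 4 of the 6: Trim39 as the strongest peak, Wnk3, Pdxk as an 8-cell-only gene, and Brk1 as the one start with GGAC, a core of the usual m6A motif. Each line gives 30 bases before the start and 30 from it on, on the strand of the gene, from RefSeq GRCm38.p6 (mm10), with the first transcribed base in capitals.
Trim39 (chr17:36271975-36272034, minus strand): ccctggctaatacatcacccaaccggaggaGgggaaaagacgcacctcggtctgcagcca
Wnk3 (chrX:151198048-151198107, plus strand): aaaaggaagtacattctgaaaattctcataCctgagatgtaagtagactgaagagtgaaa
Pdxk (chr10:78464919-78464978, minus strand): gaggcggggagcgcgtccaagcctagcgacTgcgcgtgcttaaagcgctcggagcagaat
Brk1 (chr6:113604742-113604801, plus strand): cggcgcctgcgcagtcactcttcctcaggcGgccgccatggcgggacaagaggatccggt
Trim39, a RING-type ubiquitin ligase, had peaks of 425 and 503 bp there, with folds over input of 10.7 and 12 in the authors' lists. Wnk3, a kinase of ion transport, had peaks of 658 and 487 bp with folds of 9.87 and 6.02. Pdxk makes the active form of vitamin B6 and Brk1 is a subunit of the WAVE actin regulator; their peaks were 200 or 201 bp wide. An A as first base, which m6Am needs, stood at 1 of the 6 starts, against 37.4% of all 21263 protein-coding starts of the table. GGAC on the strand of the gene, within the first 50 transcribed bases, was present at 1 of the 6 and at 20% of all starts. A match in a window of these letters is a description and no evidence of a mark on that base.

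Of 3928 genes marked in both 8-cell lists, 828 were also marked in all 10 other lists and 138 in none. Just outside the limit lay 211 genes with a single other list, which was blastocyst replicate 1 for 94 of them, 2-cell replicate 2 for 44, blastocyst replicate 2 for 36 and 2-cell replicate 1 for 22. The strongest of these 211 were Rpl34, Rps29 and Rps3a1, 3 ribosomal protein genes whose one other list was 2-cell replicate 2. A further 368 genes were marked in 1 8-cell list and in no other, led by Rpl7, Pa2g4 and Ankrd13c. Without blastocyst replicate 1 the count of 8-cell-only genes would be 232, and that of 8-cell-only regions 826 in place of 524. With the same rule on another stage, GV oocytes had 185 genes of their own, MII oocytes 24, zygotes 13, 2-cell embryos 129 and blastocysts 187.

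**Figure D1:**
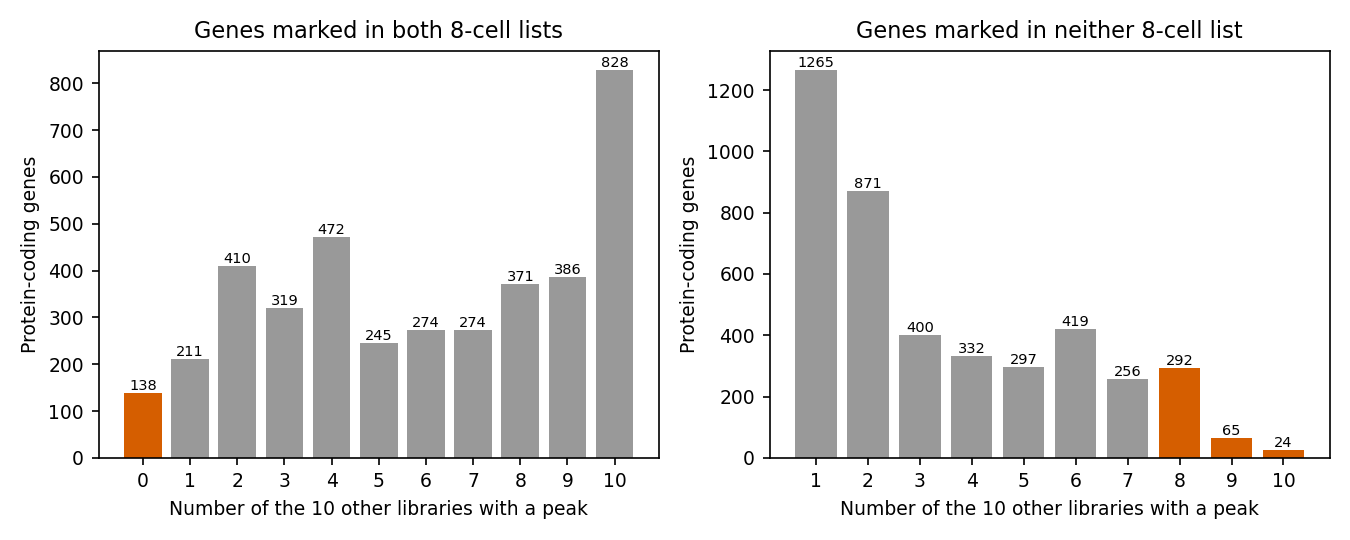
Number of protein-coding genes by how many of the 10 other libraries also mark them, for genes marked in both 8-cell lists (left) and in neither (right); the bars in orange are the members. Of the genes in both 8-cell lists, 138 stand at 0 and 828 at 10, and among genes in neither list 292 stand at 8 and 24 at 10.

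The genes marked only at the 8-cell stage were of many known roles. The peaks are ranked here by the authors' −log10 q-value within their list, as a percentile in which 100 is the strongest. Tmem50b, a small membrane protein of the endoplasmic reticulum, led the 138: its peaks lay at the 84.7th percentile in replicate 1 and the 92nd in replicate 2, with folds over input of 3.99 and 4.98. Both peaks lay near the 3' end, 1184 and 1170 bp from it in a gene of 23173 bp. Gabrd, the delta subunit of the GABA-A receptor, had peaks at chr4:155385047-155385362 and chr4:155385047-155385358, with folds of 22.2 and 12.7. It held 3 separate 8-cell-only regions, the most of any gene of known symbol that was itself 8-cell only, together with the zinc finger gene Zfp52.

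Tm9sf1, a multi-pass membrane protein, had peaks of 282 and 201 bp about 28.5% and 29% along the gene, at the 82.7th and 84.2nd percentiles. Yif1a, which carries cargo between the endoplasmic reticulum and the Golgi, had peaks 318 and 343 bp from its 3' end with folds of 19.7 and 15.2. Fkbp2, a prolyl isomerase of the endoplasmic reticulum, lay at a mean percentile of 67.6, but its peaks also lie in an overlapping gene model. Spcs1, a subunit of the signal peptidase, had peaks of 400 and 443 bp at the 62.7th and 62.9th percentiles. Rab1a, a GTPase of transport between the endoplasmic reticulum and the Golgi, ranked lower, at 41.3 and 67.2. In each of these 5 genes the peaks of both replicates shared a region.

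Psmd8, a subunit of the proteasome lid, had peaks 198 and 331 bp from its 3' end, with folds of 4.93 and 4.38. Ipo4, an importin for histones and ribosomal proteins, had peaks of 311 and 297 bp, 501 and 507 bp from the 3' end. Ndufc1, a subunit of respiratory complex I, had peaks 132 and 105 bp from the 3' end with folds of 7.43 and 5.94. Ppp6c, a protein phosphatase, lay at the 72.9th and 75.6th percentiles, and Atox1, a copper chaperone, at the 75.4th and 52.3rd. Alppl2, an alkaline phosphatase of germ cells and early embryos, differed most between replicates of these, at 65.6 and 93.4. Rbbp4, a histone chaperone, had wide peaks of 662 and 944 bp, which also touch another coding gene and cannot be assigned to one of them.

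Some of the 138 carried little support. Kat8, the acetyltransferase of histone H4 lysine 16, had a strong peak of 200 bp in replicate 1 (42.8-fold, 42.1% along the gene) and a weak one in replicate 2 at another place (6.56-fold, 98.1% along). The replicates shared a region in 119 of the 138 genes (86.2%), against 95.5% of all genes in both 8-cell lists. The peaks of 14 genes always touched another coding gene as well, and 16 genes had a peak of another library within 2000 bp of the gene body. The median over the 138 of the mean percentile was 40.4, against 66.6 over all genes in both 8-cell lists. The lowest was Limch1 at 4.65, with peaks at different places, and Pax6, a homeobox factor of the eye, lay at 10.1. Pax6, Limch1 and the other genes of this paragraph except Kat8 fall outside the naming rule and were picked after their values were seen.

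Members of the gene lists that bear on this stage were few among the 138. Tfcp2l1, a transcription factor of naive pluripotency, was the one of 21 pluripotency genes marked only at the 8-cell stage (4.76% against 1.39% of all marked genes). Its peaks overlapped about 65.5% along the gene, at the 38.2nd and 68.2nd percentiles. Llgl1, a polarity protein of the basolateral side, was the one of 46 compaction, adhesion and polarity genes, with peaks 238 and 453 bp from the 3' end. Aqp11, a water channel, was the one of 8 blastocoel formation genes and lay low, at the 14.9th and 20.6th percentiles. Ago4, an Argonaute protein of small RNA silencing, was the one of 24 in its list. Eif1, which helps choose the start codon, was the one of 40 translation factors, with folds of 1.87 and 2.16. None of the 37 2-cell and genome activation genes, the 31 trophectoderm and Hippo genes or the 13 primitive endoderm genes marked anywhere was 8-cell only.

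Among gene families, the 4 Zfp zinc finger genes Zfp52, Zfp12, Zfp706 and Zfp579 (of 311 marked anywhere, 1.29%) and the 4 solute carriers Slc5a11, Slc66a2, Slc35a3 and Slc19a2 (of 180, 2.22%) were 8-cell only. Slc35a3 moves UDP-N-acetylglucosamine into the Golgi and Slc19a2 takes up thiamine. Their peaks ranked at mean percentiles of 24.5 and 17. Kif5b, a kinesin motor, was 1 of 30 kinesins (3.33%). Of all marked genes 1.39% were 8-cell only, and each family's share rests on 4 genes or fewer.

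Ribosomal protein genes were marked often in both 8-cell lists and in one 2-cell list. Of 56 such genes marked anywhere, 8-cell replicate 1 marked 42 (75%) and replicate 2 marked 43 (76.8%). The 2-cell replicates marked 17 and 45, the blastocyst replicates 19 and 13, and the 6 earlier libraries 5 to 11. The 8-cell values thus lay above 9 of the 10 others and below 2-cell replicate 2, and the 2-cell replicates differed widely. Of the 36 marked in both 8-cell lists, 30 were in 2-cell replicate 2 as well, 20 in a blastocyst list and 14 in one of the 6 earlier lists. Rps3, Rps24 and Rpl35a were the 3 that were 8-cell only (5.36% of the 56, against 1.39% of all marked genes). Ribosomal protein genes have many near-identical copies in the genome, and how reads were shared among them is not given in the sources used here, so these peaks are uncertain.

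Rpl35a, of the large subunit, had peaks of 200 and 202 bp at 166 and 167 bp from its 3' end, with folds of 4.32 and 5.42. Rps3, of the small subunit, had peaks 1098 and 1100 bp from the 3' end, with folds of 3.35 and 2.17. Rps24, also of the small subunit, ranked at the 39.5th and 90.8th percentiles, with folds of 1.83 and 3.65. Over all ribosomal protein peaks with a known strand, the median distance to the 3' end was 369 and 277 bp in the 8-cell lists and 368 bp in 2-cell replicate 2. Blastocysts were alike, at 314 and 298.5 bp. The median was 630 bp in 2-cell replicate 1 and 652 and 946.5 bp in GV oocytes, from 3 and 8 peaks. In MII oocytes and zygotes, with 4 to 11 such peaks a library, the medians were 2165 to 2636 bp. The 8-cell peaks of this family were narrow, with medians of 206 and 207 bp, as were those of the other libraries, at 203 to 235.5 bp.

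Several further lists were marked more often at the 8-cell stage than in most libraries, shown here as the share of members with a peak. Ribosome biogenesis genes reached 85.7% and 88.6% in the 8-cell lists, against 25.7% to 77.1% in the 10 others, which the 8-cell values did not overlap. Pluripotency genes reached 76.2% in both, above the range of 28.6% to 66.7%. Cholesterol and fatty acid synthesis genes, at 62.5% in both, lay within the range of 12.5% to 75%, and primitive endoderm genes, at 61.5% in both, within 7.69% to 92.3%; for both lists the blastocyst held the highest value. Over all 9903 genes the shares were 46.7% and 50.3% in the 8-cell lists and 30.5% to 52.9% in the others. DNA methylation and imprinting genes went the other way, at 38.1% in both 8-cell lists and 33.3% to 66.7% elsewhere. These shares are descriptions, with no test of a list.

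**Figure D2:**
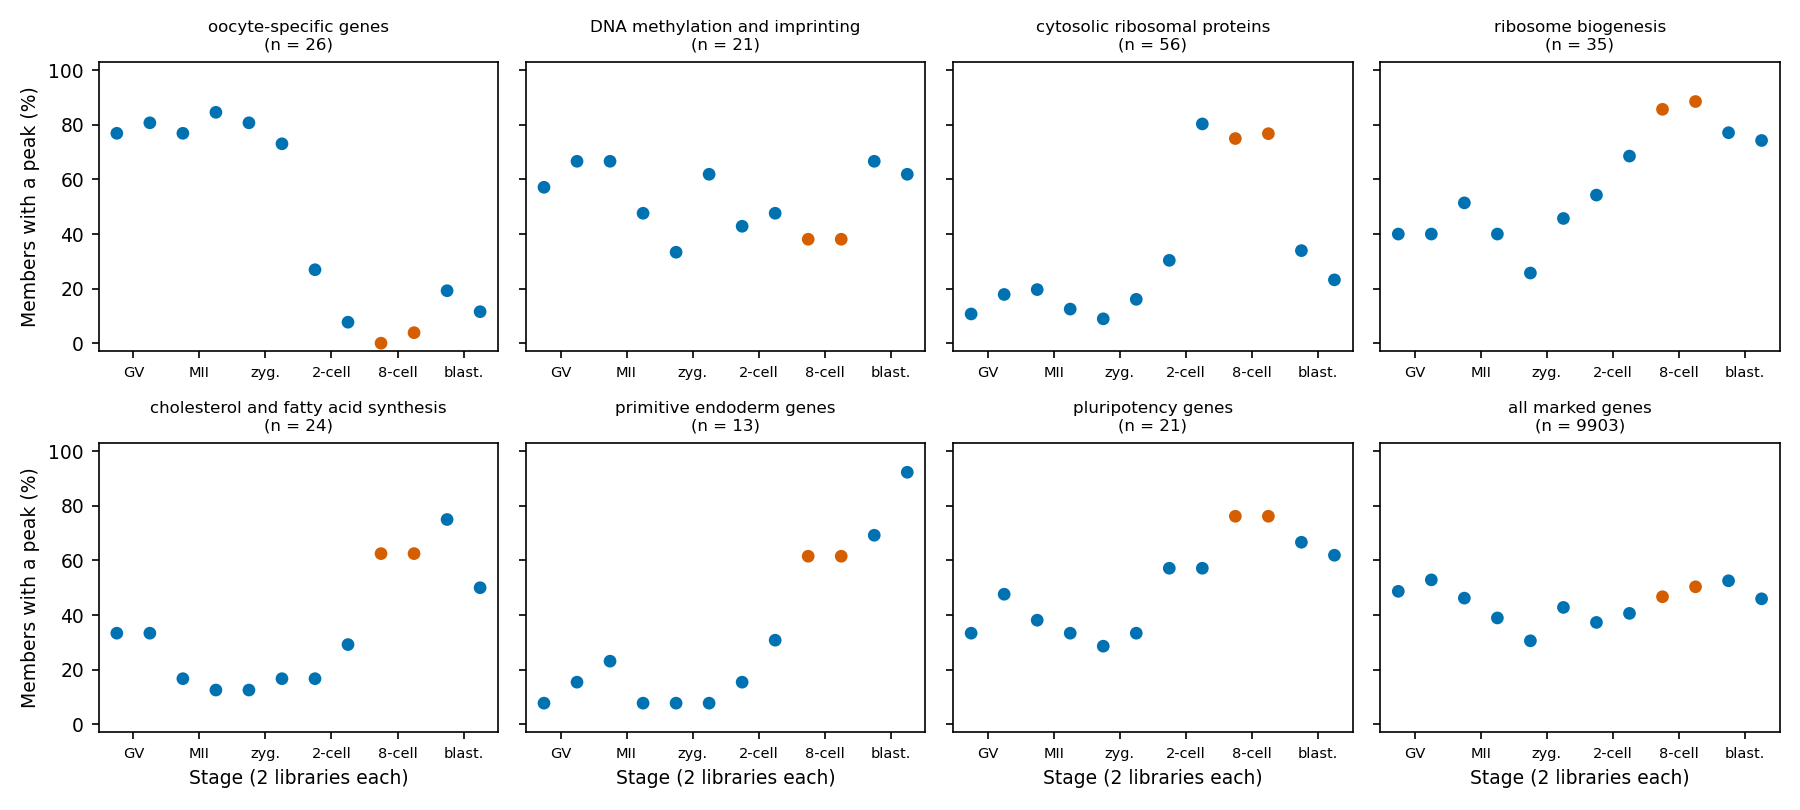
Share of the members of 8 gene lists that have a peak, in each of the 12 libraries, with the 8-cell libraries in orange and n the members marked in any library. Oocyte-specific genes are at 0 and 3.85% at the 8-cell stage, ribosome biogenesis and pluripotency genes are highest there, and ribosomal protein genes are high in the 8-cell lists and in 1 of the 2-cell lists.

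Most absent genes were marked up to the 2-cell stage and at neither of the later stages. Of the 381, 212 (55.6%) were marked in all 6 lists of GV oocytes, MII oocytes and zygotes, in both 2-cell lists and in no blastocyst list, so for these the 8-cell stage was not set apart from the blastocyst. Another 74 were marked in 1 blastocyst list and 95 in both. The 8-cell stage alone was unmarked for 24 genes, which had a peak in all 10 other lists. Just inside the limit were 292 genes with 8 other lists, led by Slco3a1, Mcur1 and Tgfb2, and just outside it 256 with 7, led by Pramel34, Nlrp9c and Egfr. The same rule gave 76 absent genes for GV oocytes, 141 for MII oocytes, 268 for zygotes and 329 each for 2-cell embryos and blastocysts. The 212 genes, and 1048 of the 1198 absent regions, were in exactly the 8 lists up to the 2-cell stage, so the counts rest on each of those libraries. With any 1 of them left out, 90 to 143 absent genes and 69 to 125 absent regions were left, against 311 and 321 genes and 1122 and 1150 regions without a blastocyst library.

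Of the 24 genes marked everywhere but at the 8-cell stage, 5 led by rank. Pakap, which encodes anchoring proteins for protein kinase A, had a peak near its 3' end in all 10 lists, at chr4:57892733-57893671 in GV oocyte replicate 2. Its percentile was 99.8 to 99.9 in the GV, MII and zygote lists, 98 and 97.8 in the 2-cell lists and 86.5 and 75.8 in the blastocyst lists, with folds from 9.97 to 22.3. By rank, Pakap was thus among the strongest peaks of the oocyte, lower in the blastocyst and not in the 8-cell lists at all. By fold, the blastocyst lists held both ends of the range, 22.3 in replicate 1 and 9.97 in replicate 2. Tnrc6b, a scaffold of microRNA silencing, lay at percentiles of 49.6 to 99.1 over the 10 lists. Ube2q2, a ubiquitin-conjugating enzyme, Mgat5, which branches N-glycans, and Lrrfip1, a regulator of transcription, had mean percentiles of 83.9, 82.7 and 80.6. In the blastocyst lists the best peak of Ube2q2 was elsewhere in the gene, at percentiles of 0.515 and 80.5. That of Mgat5 was elsewhere there too, at 62.8 and 37.4. The best peak of Tnrc6b also changed place between lists.

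Zfp57, a zinc finger protein that guards genomic imprints, was also in this group of 24. Its best peak lay at the 99.1st and 98.6th percentiles in GV oocytes and at 92.3 to 98.6 in MII oocytes and zygotes. In 2-cell embryos it lay at 54.6 and 1.03, and in blastocysts at 77.3 and 42.7. The best peak of Zfp57 was not at the same place in all 10 lists. Cep78 and Cenpj, which build centrosomes and centrioles, lay at mean percentiles of 70 and 66.1. Cenpj had its best peak at different places from stage to stage, and its 2-cell peaks ranked at 50.1 and 16. Ptk2, the focal adhesion kinase, had peaks in the same few places in all 10 lists, at percentiles of 24.6 to 83.9. Wrn, a RecQ helicase, Spry1, an antagonist of growth factor signalling, and Lsm10, a component of the snRNP that trims histone RNA, were further members, named outside the rule after their values were seen.

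Genes of the oocyte and of the maternal legacy were found among the absent genes. Of 22 maternal-effect genes marked anywhere, 4 were absent at the 8-cell stage (18.2% against 3.85% of all marked genes): Zfp57, Dnmt1, Nlrp5 and Zar1l. Of the 10 other lists, 6 are of GV oocytes, MII oocytes and zygotes, so genes marked at those stages meet the rule more easily. This share and those of the lists below therefore cannot be assigned to the 8-cell stage. Of the 22, the 8-cell lists marked 10 and 7, and the blastocyst lists 11 and 8. Dnmt1, the maintenance DNA methyltransferase, had a peak near chr9:20929060-20929317 in all 6 lists before the 2-cell stage, at percentiles of 97.5 to 99.7, and in 2-cell replicate 2 at 84.7. In 2-cell replicate 1 its best peak was elsewhere in the gene, at 70.2. Neither the 8-cell nor the blastocyst lists had one. Nlrp5, of the subcortical maternal complex, lay at 89.6 to 99.2 before the 2-cell stage and at 80.6 and 51.2 in it. Zar1l, a maternal RNA-binding protein, lay at 91.4 to 98.6 and then at 6.54 and 73.5. All 3 ranked lower in the 2-cell lists than before and had no peak after it.

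Of 26 oocyte-specific genes, Oog3 and Gdf9 met the rule (7.69% against 3.85% of all marked genes). Gdf9, the growth factor through which the oocyte drives its follicle, lay at 99.5 and 99.6 in GV oocytes, at 42.2 and 54.9 in zygotes, at 34.2 in 2-cell replicate 1 and at 44.3 in blastocyst replicate 1. Oog3, of the PRAME-like family, stayed at 98 or above up to the 2-cell stage and had a blastocyst peak in 1 list, at 29.3. Its family has near-identical copies, so its peaks are uncertain. The remaining members of the list failed the rule although only 1 was marked at the 8-cell stage, since they were marked in fewer than 8 other lists.

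Among regulators of the genome, 3 of 21 DNA methylation and imprinting genes were absent (14.3% against 3.85% of all marked genes): Zfp57, Plagl1 and Dnmt1. Zfp57 and Dnmt1 were also counted above as maternal-effect genes. Plagl1, an imprinted zinc finger factor, had its peak at one place in 8 lists, with folds of 6.11 to 32.4. Gbx2, a homeobox factor counted with the pluripotency genes, had peaks of 826 to 1228 bp up to the zygote and of 252 and 214 bp in 2-cell embryos. Obox5 and Obox1, homeobox genes of the oocyte and early embryo, were 2 of 6 members (33.3%), with copies that make them uncertain. Ythdc2, the m6A-binding RNA helicase, was the one of 20 genes of the m6A machinery (5%), at percentiles of 88.7 to 98.1 in 8 lists. Eif4e3, a cap-binding protein, was the one of 40 translation factors (2.5%). Setdb2, a histone methyltransferase whose peaks also lie in another gene, was the one of 70 histone modifiers (1.43%). Each of these shares rests on 3 genes or fewer, and the last ones lie below the 3.85% of all marked genes.

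Zinc finger genes gave the most absent genes of the families, and were also the family with the most genes marked anywhere. There were 16 Zfp genes of 311 (5.14% against 3.85% of all marked genes), among them Zfp616, Zfp560 and Zfp709. Tripartite motif genes gave 5 of 29 (17.2%), among them Trim60, Trim61, Trim26 and Trim75. An absent region at chr8:65013197-65015053 lies in both Trim60 and Trim61, so these may not be separate counts. Solute carriers gave 6 of 180 (3.33%), near the 3.85% of all genes. Slc7a11, the cystine and glutamate exchanger, had a peak of 698 to 716 bp in 7 of its 8 lists and of 216 bp in MII oocyte replicate 2. None of the 56 ribosomal protein, 35 ribosome biogenesis, 63 mitochondrial ribosomal protein or 31 trophectoderm and Hippo genes marked anywhere met the rule for absent genes. The rule needs 8 or more other lists. Few ribosomal protein genes could meet it, since each of the 6 earliest lists marked only 5 to 11 of the 56.

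The members differed in gene length. The median was 19405 bp for the 8-cell-only genes, 28665 bp for all marked genes and 93377 bp for the absent genes. Genes over 100 kb made up 12 of the 138 (8.7%), 182 of the 381 (47.8%) and 17% of all marked genes. The rules are not independent of length, since a peak anywhere in the gene body, introns included, marks a gene. A long gene can thus more easily reach 8 or more other lists, and a short gene can more easily be in none. Genes of 8 or more other lists that were kept at the 8-cell stage were not measured apart. These differences in length therefore cannot be assigned to the 8-cell stage. Within the absent genes the median was 121194 bp for those with no blastocyst list, 68571 bp with 1 and 58161 bp with both. In the absent set, 309 genes (81.1%) had 1 region common to 8 or more libraries, and the rest had peaks at different places.

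All genes marked at the 8-cell stage, and not only the members, were on the short side. The median length of marked genes was 27139 bp in 8-cell replicate 1 and 25729 bp in replicate 2, which gave 26434 ± 997 bp (SD, n = 2). In the other libraries it ran from 27269 (blastocyst replicate 1) to 41509 bp (zygote replicate 1), or 35048 ± 5097 bp (SD, n = 10). Both 8-cell libraries lay below all 10 others. By the exact two-sided permutation test over the 66 ways to choose 2 of the 12 libraries, p was 0.0303, the smallest that 2 against 10 can give, and 0.182 after Benjamini-Hochberg adjustment over 9 measures. The difference of −8615 bp (8-cell minus the others) therefore did not pass the adjusted threshold of 0.05. The gap to the nearest library, blastocyst replicate 1, was small beside the spread between stages.

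The share of peaks near the 3' end was measured in genes with a known strand longer than 10000 bp. Peaks within 2000 bp of the 3' end made up 29.7% and 32.7% in the 8-cell lists. GV oocytes had 27.2% and 27.3%, MII oocytes 16.9% and 17.5%, zygotes 17% and 16.3%, 2-cell embryos 19.7% and 22.4%, and blastocysts 31.7% and 27.6%. The 8-cell libraries were above 9 of the 10 others and overlapped with blastocyst replicate 1. The means of 31.2% ± 2.14 (SD, n = 2) and 22.4% ± 5.65 (SD, n = 10) differed with p = 0.0606 by the exact permutation test, 0.182 adjusted. With either gene end counted and no strand needed, 35.5% ± 1.96 (SD, n = 2) stood against 27.3% ± 4.73 (SD, n = 10), with the same pair of p-values in the exact permutation test. Peaks within 2000 bp of the gene start were at 4.47% in both 8-cell lists and at 3.33% to 7.78% in the others, with p = 0.727 by the exact permutation test.

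**Figure D3:**
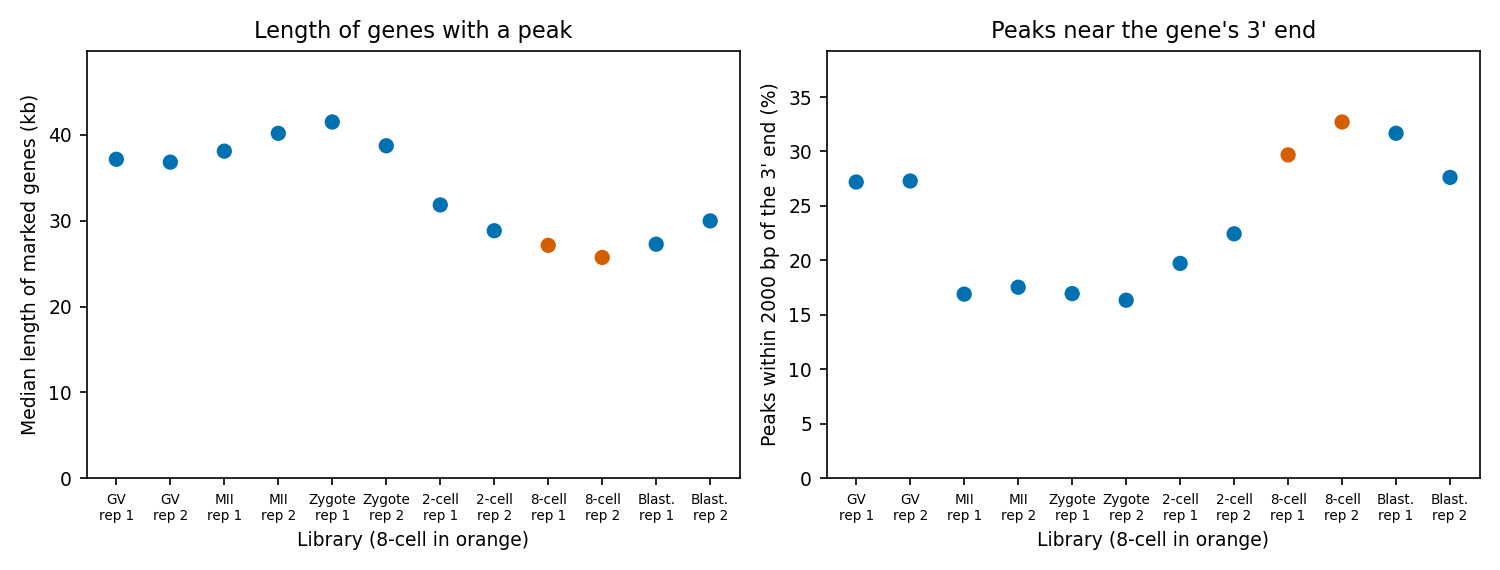
Median length of the genes with a peak (left, kb) and share of peaks within 2000 bp of the 3' end in genes over 10 kb (right, %), 1 point per library, with the 8-cell libraries in orange. The 8-cell points are the lowest of 12 on the left and lie beside the blastocyst points on the right.

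The best peak of an 8-cell-only gene lay in the last 10% of the gene for 60 of 115 genes with a known strand in replicate 1 (52.2%) and 66 in replicate 2 (57.4%). For the other genes marked in both 8-cell lists it was 45.4% and 47.1% of 3089. The first 10% held 7.83% and 4.35% of the 8-cell-only genes, against 5.47% and 4.66%. Both replicates put more of the 8-cell-only genes in the last 10%, a difference that was not tested. The absent genes had fewer best peaks in the last 10% of the gene in GV oocytes, at 36.5% and 36.2% against 47.3% and 47.1% of the other marked genes of the same lists. In 2-cell embryos the shares were 27.3% in each list against 32.5% and 36.5%. In MII oocytes they were 32.8% and 33% against 31.6% and 33.3%, and in zygotes 31.5% and 30.5% against 31.1% and 30.5%, close together in all 4 lists. None of these differences was tested. In blastocysts, where fewer of them were marked, the shares were 46.6% and 38.6% against 47.3% and 42.3%.

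**Figure D4:**
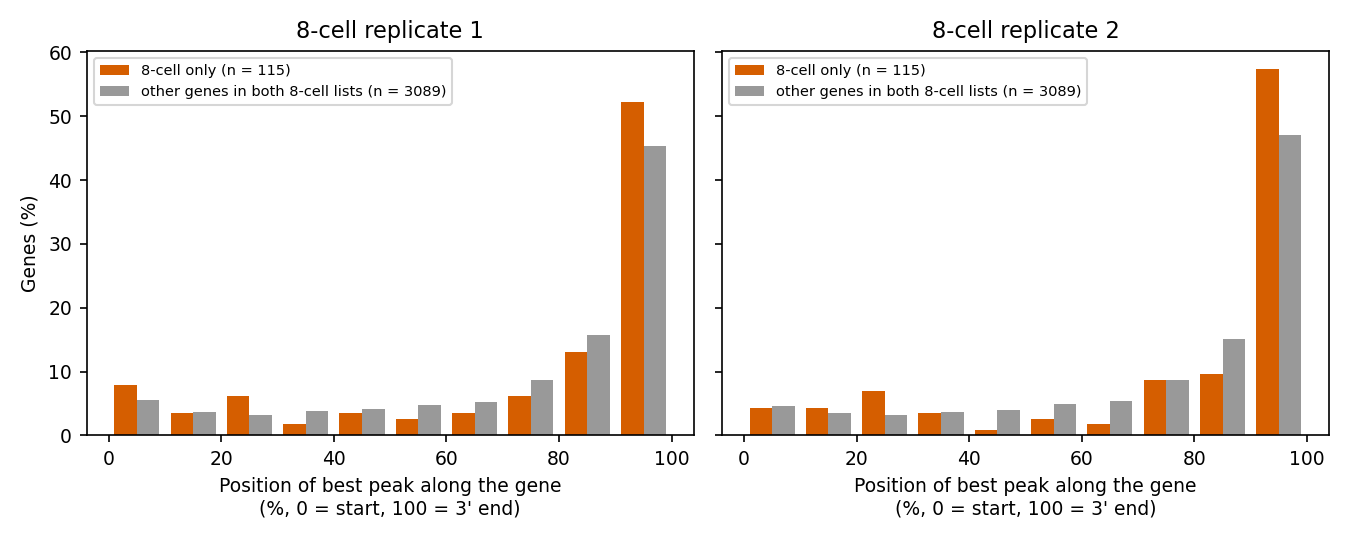
Position of the best peak along the gene, from 0 at the start to 100% at the 3' end, for 8-cell-only genes (orange) and other genes marked in both 8-cell lists (grey), in each 8-cell replicate. The last 10% holds 52.2% and 57.4% of the 8-cell-only genes and 45.4% and 47.1% of the others.

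At the level of regions, the 8-cell-only peaks numbered 531 in replicate 1 and 528 in replicate 2, or 6.03% and 5.58% of the lists. The strongest lay in Timd2, a receptor for ferritin, at chr11:46670920-46671164, with a mean percentile of 96.1 and folds of 2.27 to 2.98. The next lay between genes at chr15:73663029-73663353, with folds of 15.5 to 22.3, and in Zmpste24, the protease that matures lamin A, at chr4:121060891-121061395. A further region lay in Rps29 and one in Cdk2ap1, a regulator of cyclin-dependent kinase 2. Of the 524 regions, 387 touched a coding gene, and for 268 of these (69.3%) that gene had a peak elsewhere in at least 1 other list. In 46 the gene was marked in all 10 others. A region of its own at the 8-cell stage was thus mostly a further place in a gene marked at other stages.

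8-cell-only peaks were weaker and, where strong, narrower than the rest of their lists. The median width was 225 bp against 264 bp in replicate 1 and 235 against 290 bp in replicate 2, and the median percentile 39 against 50.9 and 41.3 against 50.8. Width rises with the q-value, so each list was cut by it into bands of 25%. In the strongest band the 8-cell-only peaks had medians of 245 and 278 bp against 415 and 444 bp, in the next band 255 and 261 against 298 and 325 bp, and in the weakest 201 and 204 against 200 and 214 bp. The strongest band held 51 and 58 of the 8-cell-only peaks. Stage-only peaks of this band were narrower than the rest in all 10 other lists too. In GV oocytes the medians were 383 and 371 against 557 and 555 bp, and in blastocysts 436.5 and 298 against 463 and 352 bp. In 2-cell embryos they were 372 and 351 against 379 and 386 bp. Stage-only peaks were also weaker by median percentile, except in 2-cell replicate 1 and blastocyst replicate 2. A wide peak can more easily overlap one of another list, so the rule is not independent of width. Stage-only peaks of the other stages differed from their own rest by −93 to 44 bp, and the 8-cell differences of −39 and −55 bp lay inside this range (difference of means −7.45 bp, p = 1 by the exact permutation test). Leaving out a 2-cell or a blastocyst library turned the sign of this difference, with values from 8.17 to 12.9 bp.

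**Figure D5:**
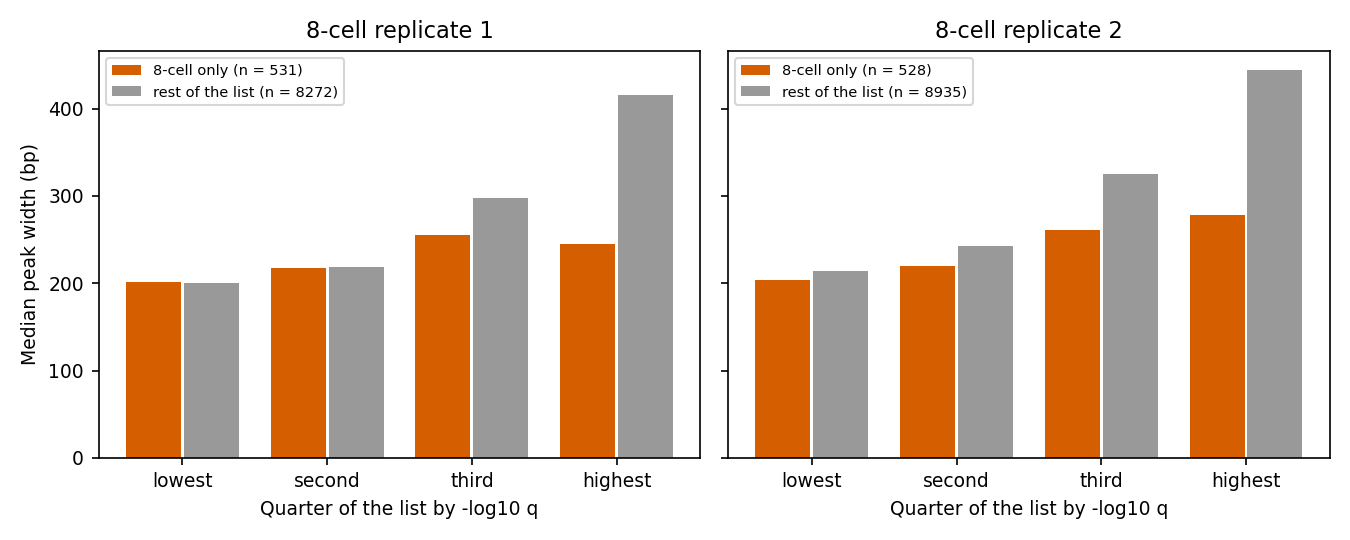
Median peak width in each band of 25% of an 8-cell list by −log10 q-value, for 8-cell-only peaks (orange) and the rest of the list (grey). The gap is widest in the strongest band, with 245 against 415 bp in replicate 1 and 278 against 444 bp in replicate 2.

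8-cell peaks as a whole were of ordinary width: the median peak width was 274 ± 18.4 bp (SD, n = 2) against 279 ± 38.9 bp (SD, n = 10; p = 1, exact permutation test). The sign of this difference turned when a GV oocyte library or 8-cell replicate 1 was left out, with values of 1.78 to 7.8 bp. Peaks per marked gene were 1.66 ± 0.0237 (SD, n = 2) against 1.62 ± 0.0785 (SD, n = 10; p = 0.455, exact permutation test). The 8-cell lists had few peaks outside genes, 8.47% and 7.34%, against 19.5% to 31.4% in the 8 libraries up to the 2-cell stage and 3.74% and 7.11% in blastocysts. This placed them with the blastocyst, and the difference of −12.4 percentage points from the mean of the others had p = 0.182 in the exact permutation test. The 8-cell-only peaks lay between genes more often than the rest of their lists, at 17.1% and 17.4% against 7.92% and 6.75%. So did stage-only peaks of 2-cell embryos (57.9% and 58.5% against 27.1% and 20.7%) and blastocysts (8.1% and 8.24% against 3.53% and 7.05%). Those of GV oocytes and zygotes did too, and those of MII oocytes did not. The 8-cell-only peaks also lay within 2000 bp of a gene start more often, at 7.5% and 8.1% (21 and 23 peaks) against 4.31% and 4.29%. Stage-only peaks of MII oocytes, zygotes and blastocysts did so too, and those of GV oocytes and 2-cell embryos did not. In blastocysts the shares were 5.86% and 5.79% against 4.26% and 4.24%. Near the 3' end the 8-cell-only peaks lay about as often as the rest, at 32.1% and 32.4% against 29.5% and 32.7%. With either end counted, stage-only peaks lay near an end 4.76 ± 1.45 percentage points (SD, n = 2) more often than the rest at the 8-cell stage, and −4.73 ± 9.54 (SD, n = 10) in the others (p = 0.182, exact permutation test). The contrast of 9.49 points between these means was 1.94 without 8-cell replicate 2, 4.98 without 2-cell replicate 1, 14.6 without blastocyst replicate 1 and 4.08 with lists of equal length.

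The absent regions are set here against all regions or the rest of each list. The rule takes regions of 8 or more other lists, while the rest includes peaks found in few lists. Regions of 8 or more other lists that were kept at the 8-cell stage were not set apart. The differences below therefore cannot be assigned to absence at the 8-cell stage. Of the 1198, 1048 (87.5%) had no blastocyst list either, and 628 (52.4%) lay between genes, against 21.1% of all 31379 regions. In the 6 lists before the 2-cell stage their peaks had medians of 437 to 463 bp, against 236 to 329 bp for the rest of each list. In the 2-cell lists they were 344 and 319.5 bp against 237 and 252 bp. In genes over 10 kb, 8.45% to 11.9% of these peaks in the 8 lists lay within 2000 bp of the 3' end, against 16.7% to 28.5% of the rest. The absent-region peaks were also strong, with median percentiles of 73.1 to 78.4 against 43.2 to 46.6 in the 6 earlier lists and of 67.2 and 57.4 against 46.6 and 48.7 in the 2-cell lists, and width rises with strength. Within the bands of 25% by q-value they were still the wider in all 4 bands of each of these 8 lists. In the strongest band the medians were 473 to 622 bp against 325 to 538 bp in the 6 earlier lists and 404 and 431 bp against 364 and 373 bp in the 2-cell lists. In the weakest band they were 254 to 290 bp against 203 to 235 bp and 212.5 and 232 bp against 200 and 202 bp. Of 474 that touched a coding gene, 336 (70.9%) were in absent genes, and 140 were in genes that kept another 8-cell peak.

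Of the 15 regions present in all 10 other lists, the 6 strongest lay in Pakap, Fbxw7, Lrrfip1, Sipa1l1, Ccdc34 and Mast4. Fbxw7 is the substrate receptor of a ubiquitin ligase, and its region at chr3:84977211-84977964 had folds of 9.6 to 29.7. The region in Lrrfip1, at chr1:91114406-91116011, was up to 1592 bp wide with folds of 3.06 to 6.47. Fbxw7 and Sipa1l1, a regulator of Rap GTPases, had a peak elsewhere in the gene in at least 1 8-cell list, so neither is an absent gene.

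Among the genes of both 8-cell lists, 85.7% and 73.9% were marked in blastocyst replicates 1 and 2, 57.3% and 65.8% in the 2-cell lists, 60.9% and 64.6% in GV oocytes, 54.3% and 47% in MII oocytes and 36.5% and 49.5% in zygotes. Seen from the other lists, 64.7% and 63.8% of the blastocyst genes and 45.9% to 49.6% of the genes of the 6 earliest lists were marked in both 8-cell lists. These shares move with the length of a list, and zygote replicate 1 had the shortest.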

How the data were processed

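The series holds 24 samples: 12 RNA samples immunoprecipitated with an m6A antibody, each with a peak list, and 12 inputs, not analysed here. Per the submitters' processing notes, the tools include HISAT2 2.1.0, an aligner, and MACS2 2.1.2, a peak caller, with build mm10; the parameters were not given in the sources used here. Peak names in the deposited lists show that the authors called each library against its own input. The deposited columns are the authors' score, their fold enrichment over input (a ratio), the −log10 of the q-value and that of the p-value, used here to rank, filter and describe peaks within a list. Depth is unknown.

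Where several summits lay in one interval, the one of highest −log10 q-value stood for the peak (143579 summits, 113764 peaks). A gene was marked when a peak overlapped its body by at least 1 bp. Gene bodies came from RefSeq GRCm38.p6 (21887 protein-coding genes), and strand from its table of gene starts, for 17492 of them; the gene bodies include introns. Exon, stop codon and motif analyses were planned and not run, since they need a genome. Overlapping peaks were joined into regions. For measures with 1 value a library, 2 libraries were set against 10 by exact two-sided permutation, with Benjamini-Hochberg adjustment over 9 measures. Shares near the 3' end and the gene start were added after the data were seen. The rule set was tested on simulated lists. Python 3.11.15, pandas 2.3.3, numpy 2.4.6 and scipy 1.17.1 were used.

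Members and gene lists were chosen with earlier results of these data known. Named genes are the 24 8-cell-only genes with the highest mean percentile, the 16 absent genes in most other lists, then by percentile, up to 4 per list and direction, 6 regions per direction and 3 genes at each limit. Models without a symbol of their own (11 of the 8-cell-only and 22 of the absent genes) are counted and not named. The tests treat the libraries as independent samples, although those of a stage share it. With stages as units, 1 against 5, even a one-sided permutation p cannot go below 0.167, and the two-sided p used here has a higher floor. Alternatives were equal list lengths, a stricter q-value, stricter overlaps, 500 bp, the replicate block and each library left out.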

Additional observations from a re-analysis of the deposited data

How the results depend on the processing

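With each list cut to its best 6914 peaks, the shortest length, the 8-cell-only genes numbered 125, the absent genes 326, the 8-cell-only regions 450 and the absent regions 874. A −log10 q-value of at least 5 gave 124, 357, 463 and 1112. These counts, and those with stricter overlaps, stayed within 1.5 times the reported ones. Asking for all 10 other lists left 24 absent genes and 15 absent regions. Leaving out 1 library gave 139 to 342 8-cell-only genes and 525 to 1770 8-cell-only regions, highest without an 8-cell list, since 1 list then sufficed; without blastocyst replicate 1 they were 232 and 826. It gave 90 to 507 absent genes and 69 to 1343 absent regions. Without a library up to the 2-cell stage they were 90 to 143 and 69 to 125, and without a blastocyst library 311 and 321 and 1122 and 1150; 212 absent genes and 1048 absent regions are in exactly the 8 lists up to the 2-cell stage. Of the 9 tested measures none passed the adjusted threshold in any of the 140 alternative values, but some of these could not pass. The smallest p of the exact permutation test was 0.0303 with all 12 libraries and 0.0364 without 1 library of another stage. It was 0.0556 with the replicate block and 0.182 without an 8-cell library. Settings with a floor above 0.05 therefore decide nothing. The measures whose sign turned were the difference in peak width, at −18.2 to 7.8 bp when 1 library was left out, and that of the stage-only width difference, at −71.2 to 12.9 bp. Replicate numbers did not pair the libraries: over 15 pairs of stages, the correlation of same-numbered deviations in marked genes was −0.165 to 0.0249. With the replicate block, the difference in marked gene length of −8615 bp had p = 0.0556, the smallest that exact permutation within replicate numbers allows, and that in the 3' end share of 8.83 percentage points had p = 0.111; it changed no call. Chosen after the data were seen: 122 8-cell-only genes had no other library's peak within 2000 bp, and 453 8-cell-only regions none within 500 bp.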

Other observations

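Some 8-cell-only regions lay in genes that code for no protein. A region at chrX:103470574-103471072, with a mean percentile of 76.4 over both 8-cell lists, lay where Xist and Tsix overlap; Xist is the RNA that coats the inactive X chromosome and Tsix its antisense partner. The peak lists carry no strand, so the 2 cannot be told apart. Norad, a cytoplasmic RNA that binds Pumilio proteins, held a region at chr2:156390129-156390515 with a mean percentile of 26.4. Platr10, a long noncoding RNA, held one at chr3:75648550-75648975 with a mean percentile of 76.8. The pseudogene Gm29716 on chromosome 5 held 4 separate 8-cell-only regions, the strongest at chr5:104883844-104884422, with folds of 10.9 to 16. In all, 52 of the 524 regions (9.92%) lay in genes other than protein-coding ones, against 7.23% of all 31379 regions. These genes were picked after their values were seen.

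Chromosome 7 carried 17 of the 138 8-cell-only genes (12.3%) and 7.36% of all marked genes, and chromosome 6 carried 2 (1.45%) against 4.77%. The 381 absent genes were spread more evenly, with 5.77% on chromosome 7 and 6.04% on chromosome 6.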
